A study of Caenorhabditis elegans with 6 samples.

Results

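The windows described here lie at the left edge of the large piRNA cluster of Caenorhabditis elegans chromosome IV. They are the piRNA precursor windows whose start in the deposited table falls from 13 Mb to below 14 Mb, on both strands. There were 1140 of them, 580 on the plus strand and 560 on the minus strand, out of 15703 windows in all. The counts came from small RNA of isolated germ nuclei of strain YL701, which carries ISW-1::eGFP::AID on chromosome III and the transgene wrdSi51 at II:0.77. In that transgene the mex-5 promoter drives TIR1, with F2A, mTagBFP2, AID* and NLS and the tbb-2 3'UTR, so depletion is directed to the germ line, where this promoter is active. After 45 h of growth at 22 °C, worms spent 3 h on 1 mM auxin (ISW-1 KD) or on ethanol plates (ETOH), and all of them, controls included, carried the tag and the transgene. Each condition had 3 libraries, which had been pooled into 1 column before counting, so no spread between replicates could be had and no p-value was computed. All intervals given are at 95% and reflect counting error alone. Loss of the ISW-1 protein could not be read from these counts, and neither could markers of germ cells or of other cells, since the table held piRNA windows alone.

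piRNAs are small RNAs bound by Piwi proteins that silence foreign sequence in the germ line. In the worm they are called 21U-RNAs, and each is cut from its own short capped precursor, which RNA polymerase II makes from a tiny gene with an upstream promoter motif. Most of these genes crowd into a small and a large cluster on chromosome IV, where the upstream sequence transcription complex (USTC) binds. ISW-1 is the ATPase of ISWI-type remodellers, which slide and space nucleosomes. The comparison asked whether depletion of ISW-1 was accompanied by a change in precursor RNA.

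The region held the transition from sparse to dense piRNA genes. Between 13 and 13.5 Mb there were 13 windows, and between 13.5 and 13.6 Mb there were 25. The next 4 steps of 100 kb held 226, 296, 290 and 290 windows, so 1102 of the 1140 lay beyond 13.6 Mb. From there on, neighbouring window starts were 198 bases apart at the median. The Ensembl annotation of the build WBcel235 followed the same course, with 221, 294, 287 and 290 piRNA genes in the last 4 steps and 1127 in the region.

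**Figure D1:**
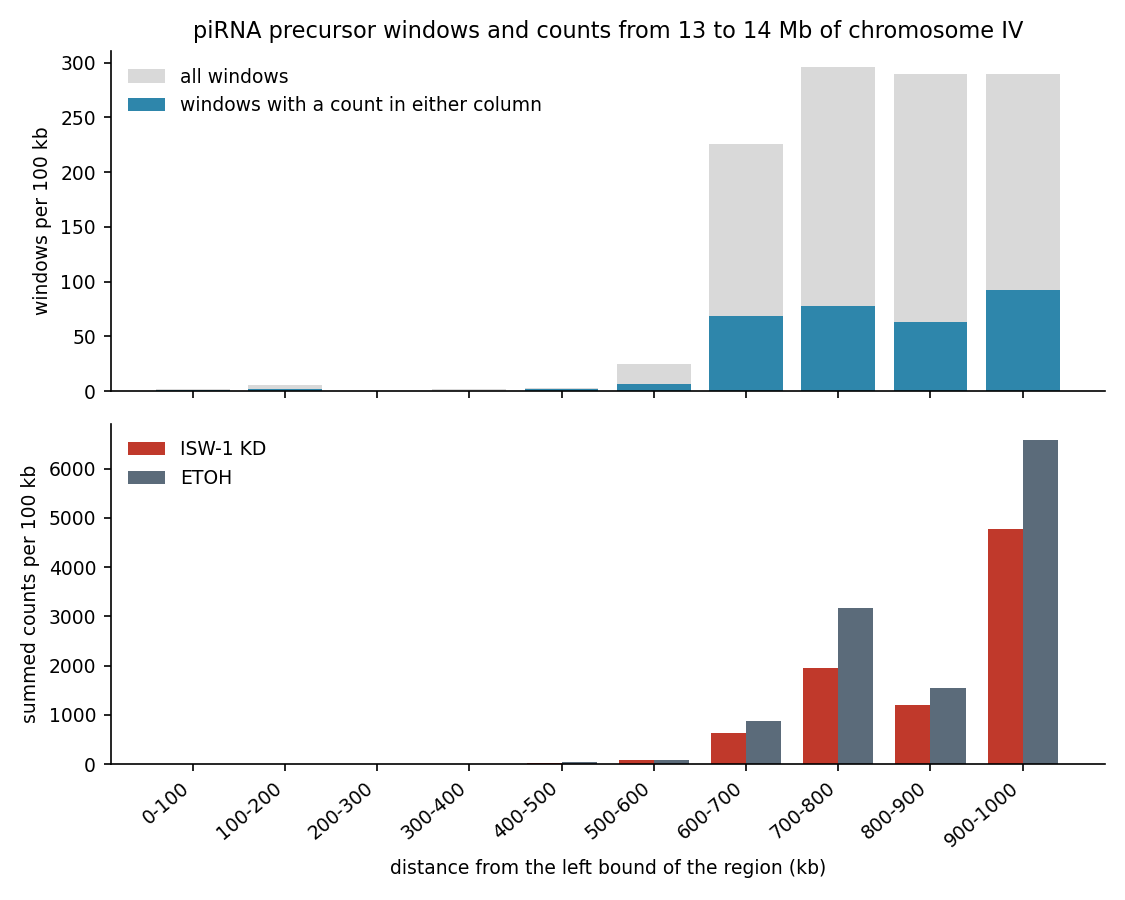
Windows per 100 kb (top, all windows in grey and those with a count in either column in blue) and summed raw counts per 100 kb (bottom, ISW-1 KD left of ETOH) against the distance in kb from 13 Mb on chromosome IV. Windows and counts were few up to 600 kb, and the last 100 kb held the most counts, 4769 in ISW-1 KD and 6584 in ETOH.

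Counts were present in a minority of windows, in ISW-1 KD and in ETOH alike. In ISW-1 KD 238 windows had a count (20.9%, interval 18.6 to 23.4), and in ETOH 258 did (22.6%, 20.2 to 25.2). Both columns had a count in 182 windows, ISW-1 KD alone in 56 and ETOH alone in 76, while 826 had none. If the ETOH column were read at the smaller total of the ISW-1 KD column, 244.3 windows of the region would be expected to have a count, so the gap to the 238 of ISW-1 KD was smaller at an equal total. These totals depend on a few abundant windows, among them 21ur-2844. The ratio of the ISW-1 KD total to the ETOH total was 0.763 with 21ur-2844 and 0.871 without it. The most abundant window of the whole table, another one with 168964 counts over both columns, was in both ratios. Of the region's windows, 27.5% (25.0 to 30.2) had a count in either column, against 25.7% over the whole table. Ratios were taken for windows with 10 or more counts in the sum of the columns, which numbered 107 (9.39% of the region's windows), against 8.41% over the whole table.

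Whether a window had a count went with its overlap with other windows. A read whose 5′ base lies in more than 1 window was counted for none, and 503 of the 1140 windows overlapped another on their own strand. Of these 503, 20 had a count in either column (3.98%), whereas 294 of the 637 others did (46.2%). The overlapping windows held 60 counts in ISW-1 KD and 188 in ETOH, most of them in 21ur-10827 (31 counts in ISW-1 KD and 80 in ETOH) and 21ur-4882 (10 in ISW-1 KD and 68 in ETOH). A count of 0 in an overlapping window therefore says little about its precursor.

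What each count stands for also depends on the genome build. In WBcel235 the piRNA of the same name lay 25 or 26 bases to the right of the window, and none of the 1125 windows that could be located overlapped it. The build of the windows and that of the alignments are not given in the sources used here beyond the name ce11. If windows and reads shared a build, a count belongs to the piRNA named. If the reads were placed on WBcel235 and the windows were not, a count comes from the bases beside that piRNA, and the gene contexts printed here are those of the named piRNA and not of the counted bases. Read at the coordinates of the table on WBcel235, 1 of the 626 located windows without overlap held the 5′ base of any annotated piRNA on its strand. Of the other 625, 292 had a count. The 5′ base is that of the mature piRNA, and a window displaced by 25 or 26 bases cannot hold that of its own. Where the precursors start was not examined, so these numbers do not tell whether a window could take precursor reads. By strand, 27.1% of plus-strand and 28.0% of minus-strand windows had a count in either column.

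The few windows before 13.6 Mb held 121 counts in ISW-1 KD and 111 in ETOH. Of these, 21ur-9860 (IV:13595926-13595946, minus strand) had 76 counts in ISW-1 KD and 73 in ETOH. Farther left, 21ur-15591 (IV:13420966-13420986, minus strand) was the first window along the region with at least 10 counts. It lay over an exon of pik-1 on the opposite strand, a gene for a kinase related to the IRAK family, and had 26 counts in ISW-1 KD and 24 in ETOH. The window of 21ur-15246, over an exon of K09B11.5 on the opposite strand, had 2 counts in ISW-1 KD and 10 in ETOH. No other window before 13.6 Mb had more than 5 counts in either column.

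Summed over the region, ISW-1 KD held 8681 counts and ETOH 12303, a raw ratio of 0.706 (0.686 to 0.725) and a deficit of 3622 counts. The whole table held 351565 counts in ISW-1 KD and 461069 in ETOH, a ratio of 0.763. Library depth beyond these windows was not known, so a shift common to every window and a difference in sequencing depth cannot be told apart. The region held 2.47% of all ISW-1 KD counts and 2.67% of all ETOH counts. Without 21ur-2844, an abundant window elsewhere on chromosome IV that was much lower in ISW-1 KD, these shares were 2.83% for ISW-1 KD and 3.50% for ETOH. The whole table then held 306254 counts in ISW-1 KD and 351522 in ETOH. Some windows overlap genes of structural RNAs, such as tRNAs or snRNAs. Over the whole table these 22 windows held 45847 counts in ISW-1 KD and 110463 in ETOH. The fall on leaving out 21ur-2844 was nearly as large. Whether its reads were those of a piRNA precursor was not tested. The ratio of the whole table without 21ur-2844 was 0.871 (0.867 to 0.875), farther above the region's 0.706 than with it. Another window, with 168964 counts over both columns, stayed in that total, so 0.871 also rests in part on few windows.

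A handful of windows carried most of the region's counts. The window of 21ur-1393 (IV:13941355-13941375, minus strand) lay in an intron of the protein-coding gene Y37A1A.4 on the opposite strand. It had 3737 counts in ISW-1 KD and 4946 in ETOH, or 43.0% of the region's ISW-1 KD counts and 40.2% of its ETOH counts, and a raw ratio of 0.756 (0.724 to 0.789). The 5 most abundant windows held 65.9% of ISW-1 KD and 61.9% of ETOH counts, and the 10 most abundant held 74.2% of ISW-1 KD and 71.4% of ETOH counts. With 21ur-1393 left out, the region's ratio was 0.672 (0.648 to 0.697), and with the 10 most abundant left out it was 0.636 (0.603 to 0.671). All windows were 24 bases long, so their counts can be compared without a correction for length.

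The next 4 windows by abundance, which had 922 to 1306 counts over both columns, did not share a ratio. The window of 21ur-7438 (IV:13748792-13748812, plus strand, in no protein-coding gene) had 584 counts in ISW-1 KD and 722 in ETOH. That of 21ur-7225 (IV:13705816-13705836, minus strand, outside genes) had 592 counts in ISW-1 KD and 680 in ETOH. Both were a little lower in ISW-1 KD, with ratios of 0.809 (0.724 to 0.903) and 0.871 (0.778 to 0.973). The window of 21ur-3006 (IV:13820592-13820612, plus strand), in an intron of Y45F10D.15 on the opposite strand, had 590 counts in ISW-1 KD and 569 in ETOH. Its ratio of 1.04 (0.923 to 1.17) could not be told apart from equality.

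The window of 21ur-5510 stood apart from those of like abundance. At IV:13711933-13711953 on the plus strand, outside protein-coding genes, it had 219 counts in ISW-1 KD and 703 in ETOH, a raw ratio of 0.312 (0.266 to 0.363). Its interval did not overlap those of 21ur-7438, 21ur-7225 or 21ur-3006, which had 569 to 722 counts in ETOH. This single window held 484 of the region's deficit of 3622 counts, against 1209 for 21ur-1393.

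The other 5 of the 10 most abundant windows ran from 111 to 184 counts in ISW-1 KD and from 184 to 267 in ETOH. The window of 21ur-388 (IV:13917665-13917685, minus strand, outside genes) had 111 counts in ISW-1 KD and 254 in ETOH, a ratio of 0.437 (0.346 to 0.548). That of 21ur-1800 (IV:13716376-13716396, minus strand), over an exon of C47A4.1 on the same strand, had 129 counts in ISW-1 KD and 226 in ETOH. Ratios of 0.626 and 0.689 were found for 21ur-3387, in an intron of the heterochronic gene lin-66, and for 21ur-1770, in an intron of Y45F10D.15. The interval of 21ur-7739 (0.826, 0.662 to 1.03) reached equality, and those of the other 4 lay below it.

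**Figure D2:**
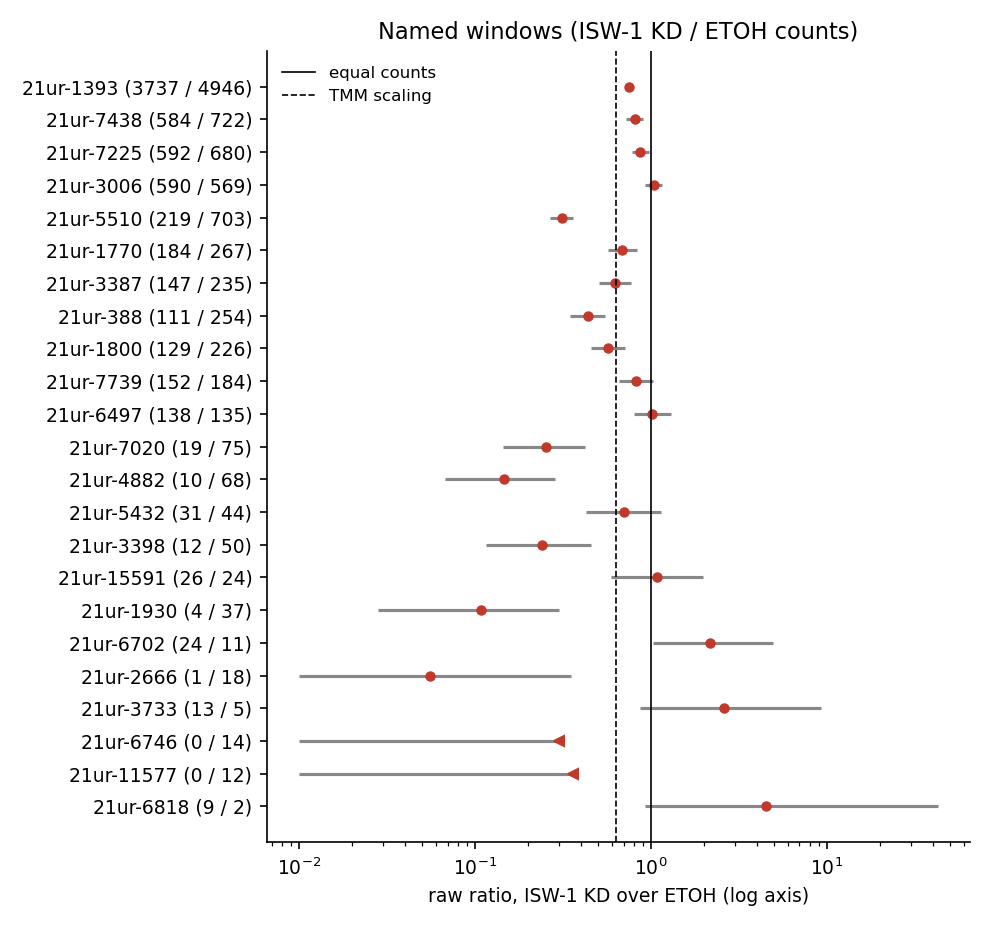
Raw ratio of ISW-1 KD over ETOH counts (log axis) for the 23 named windows, with 95% intervals for counting error, ordered by total counts from top to bottom. Counts of ISW-1 KD and ETOH stand beside each name, the solid line marks equal counts and the dashed line the TMM scaling of 0.637. An arrow marks the upper bound where ISW-1 KD had 0 counts, and bars end at 0.01. The interval of 21ur-5510 lies below those of the 4 windows above it.

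Most windows of the region had fewer counts in ISW-1 KD than in ETOH. Of the 107 windows with at least 10 counts, 83 had fewer in ISW-1 KD, 19 had more and 5 had equal numbers, and the share with fewer, 77.6%, was close to the 78.5% over the whole table. On the raw log2 scale the median ratio was −0.76 (quartiles −1.58 and −0.22), against −0.66 over all 1320 such windows of the table. A raw difference of 2-fold or more was seen in 47 windows lower in ISW-1 KD (43.9%, against 38.9% over the whole table) and in 3 higher ones (4.02% over the whole table). Counting error did not bridge the gap to equality, by the interval of the unscaled ratio, in 47 windows below 1 (40.7% of the whole table) and 1 above it (2.42% of the whole table).

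Scaled ratios set each window against the typical precursor. TMM scaling, which removes a shift common to most windows, put ISW-1 KD at 0.637 of ETOH, a shift of −0.65 on the log2 scale. After scaling, with a prior count of 2 added to steady low counts, the region's median log2 ratio was −0.10, against −0.01 over the whole table. At a scaled difference of at least 2-fold, 21 windows were lower in ISW-1 KD (19.6%) and 5 were higher (4.67%). Of all such windows in the deposited data, 14.8% were lower and 8.41% higher. Without scaling, with the same prior count, 41 were lower and 3 higher, and 33.6% were lower and 2.80% higher over the whole table. No test of the difference between the region and the rest of the table was run.

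**Figure D3:**
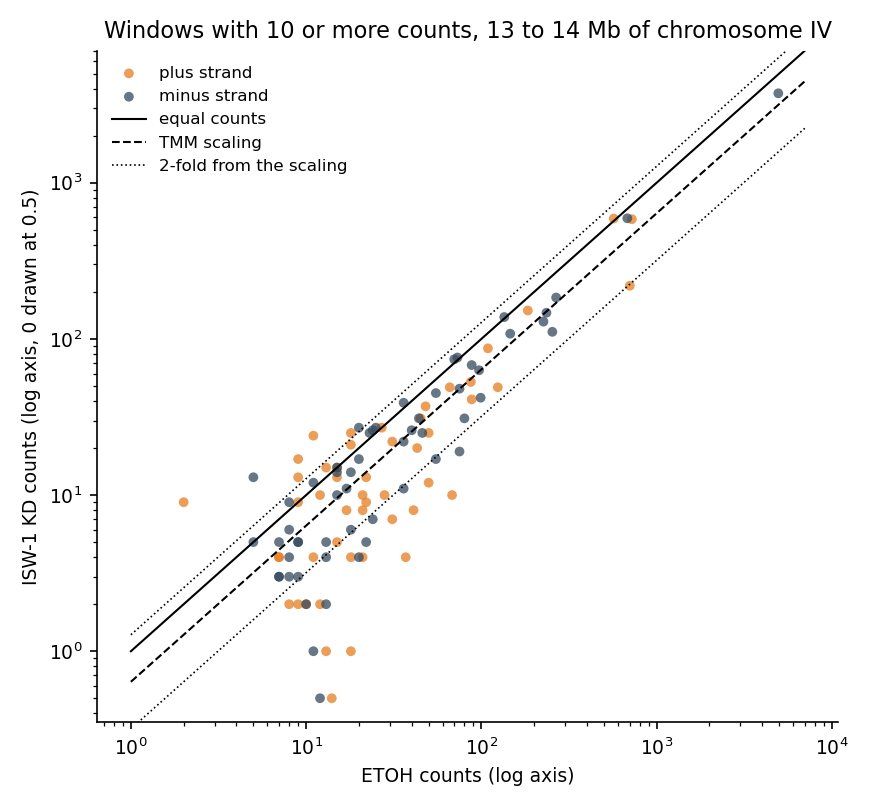
ISW-1 KD counts against ETOH counts (both log axes) for the 107 windows with at least 10 counts, coloured by strand, with 0 counts drawn at 0.5. The solid line marks equal counts, the dashed line the TMM scaling and the dotted lines a 2-fold distance from it. Windows with fewer than 50 ETOH counts spread most widely, and 83 of the 107 lie below the solid line.

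Most of the lower calls were made in windows with few counts. Of 30 windows with 10 to 20 counts, 10 were called lower (33.3%) and 2 higher (6.67%) after scaling, and 18.3% of that class were lower and 14.1% higher over the whole table. Of 42 windows with at least 50 counts, 4 were called lower and 0 higher, or 9.52% lower, and the share over the whole table was 9.50% lower and 3.91% higher. By abundance, the raw median log2 ratio was −1.40 at 10 to 20 counts (30 windows), −0.63 at 20 to 50 (35 windows), −0.62 at 50 to 100 (17 windows) and −0.43 at 100 or more (25 windows). Over the whole table the same classes had medians of −0.68, −0.85, −0.72 and −0.49. The region's lowest class thus lay below that of the whole table, and its other classes above.

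The 4 windows with at least 50 counts that were called lower were 21ur-5510, described above, 21ur-7020, 21ur-4882 and 21ur-3398. The window of 21ur-7020 (IV:13717072-13717092, minus strand, outside genes) had 19 counts in ISW-1 KD and 75 in ETOH, a scaled ratio of 0.397 (0.227 to 0.664). It lay 696 bases from 21ur-1800 on the same strand, whose scaled ratio was 0.896 (0.716 to 1.12). The window of 21ur-4882 (IV:13993793-13993813, plus strand), in an intron of egl-23 on the same strand, had 10 counts in ISW-1 KD and 68 in ETOH, a scaled ratio of 0.231 (0.106 to 0.451). It overlapped another window, so only part of it could take reads.

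The window of 21ur-3398 shared its place with another kind of RNA. The piRNA is annotated at IV:13601639-13601659 on the plus strand, 3 bases into the small nuclear RNA gene smy-10 (IV:13601636-13601725, same strand). SmY RNAs take part in trans-splicing in nematodes. Its window had 12 counts in ISW-1 KD and 50 in ETOH, a scaled ratio of 0.377 (0.183 to 0.717). Reads of the piRNA precursor and of smy-10 cannot be told apart in this count. At the coordinates of the table, the last 2 bases of the window lie in smy-10. The overlapping windows of 21ur-3338 and 21ur-2046, which are annotated 2 and 5 bases into smy-8, had 0 and 3 counts in ISW-1 KD and 1 and 3 in ETOH.

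The 5 windows whose scaled interval lay farthest below equality were 21ur-4882 and 4 with fewer counts. The window of 21ur-1930 (IV:13751790-13751810, plus strand), in an intron of sorb-1 on the same strand, had 4 counts in ISW-1 KD and 37 in ETOH, a scaled ratio of 0.170 (0.0439 to 0.472). The gene encodes a sorbin-family adaptor protein. The window of 21ur-2666 (IV:13895911-13895931, plus strand, outside genes) had 1 count in ISW-1 KD and 18 in ETOH, with a scaled ratio of 0.0872 and an interval up to 0.552.

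A pair of windows with at least 10 counts had none in ISW-1 KD. That of 21ur-6746 (IV:13732212-13732232, plus strand), in an intron of ent-4 on the same strand, a gene for a nucleoside transporter, had 0 counts in ISW-1 KD and 14 in ETOH. That of 21ur-11577 (IV:13710157-13710177, minus strand, outside genes) had 0 counts in ISW-1 KD and 12 in ETOH. Against a floor of 3 counts in the ISW-1 KD column, they were at least 2.97-fold and at least 2.55-fold lower after scaling. They passed the minimum of 10 counts through the ETOH column alone, so a deficit in ISW-1 KD was fixed in part by that choice. The same limit holds for most of the windows called lower, 21ur-1930 and 21ur-2666 among them. No window with at least 10 counts in the region had 0 counts in ETOH, and 6 such windows had 0 in ISW-1 KD and 1 had 0 in ETOH over the whole table. These windows were picked by the intervals printed here, with no allowance for the choice.

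Few windows were called higher in ISW-1 KD, and all that were called had fewer than 50 counts. The windows called higher after scaling were 21ur-6702, 21ur-3733, 21ur-6818, 21ur-5664 and 21ur-4428. The last 2 of these, with 17 and 25 counts in ISW-1 KD and 9 and 18 in ETOH, were not among those chosen by interval and were named after their values were seen. The window of 21ur-6702 (IV:13870711-13870731, plus strand), in an intron of the proline dehydrogenase gene prdh-1 on the opposite strand, had 24 counts in ISW-1 KD and 11 in ETOH. Its raw ratio was 2.18 (1.03 to 4.93), the one interval of the region that lay above 1 without scaling.

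The other higher calls rested on fewer counts or on the scaling. The window of 21ur-3733 (IV:13629642-13629662, minus strand), within an sru-21 intron on the opposite strand, had 13 counts in ISW-1 KD and 5 in ETOH. In this window and in that of 21ur-5664 the ISW-1 KD column alone reached the minimum of 10 counts. Their excess in ISW-1 KD was fixed in part by that choice. The gene sru-21 encodes a serpentine receptor. That of 21ur-6818 (IV:13908129-13908149, plus strand), in an intron of Y37A1A.2 on the opposite strand, had 9 counts in ISW-1 KD and 2 in ETOH, with a scaled interval from 1.46 to 67.1. The abundant windows 21ur-3006 and 21ur-6497 were also among the 5 whose scaled interval lay farthest above equality. They had 590 and 138 counts in ISW-1 KD and 569 and 135 in ETOH, so they were near equality in raw counts, and their scaled ratios were 1.63 (1.45 to 1.83) and 1.60 (1.26 to 2.05).

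The strands differed in their medians. On the plus strand, 39 of 50 windows had fewer counts in ISW-1 KD (median raw log2 −1.04), and on the minus strand 44 of 57 did (median −0.63). After scaling the medians were −0.35 and 0.02, and 14 plus-strand and 7 minus-strand windows were called lower. Over the whole table the scaled medians of the strands were 0.01 and −0.02, with 103 of 664 plus-strand and 93 of 656 minus-strand windows called lower. In the region the gap lay in windows with few counts. Those with 10 to 50 counts had scaled medians of −0.56 on the plus strand (n = 33) and −0.21 on the minus strand (n = 32), whereas those with 50 or more had 0.11 on each strand (n = 17 and 25). The difference between strands was not tested.

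**Figure D4:**
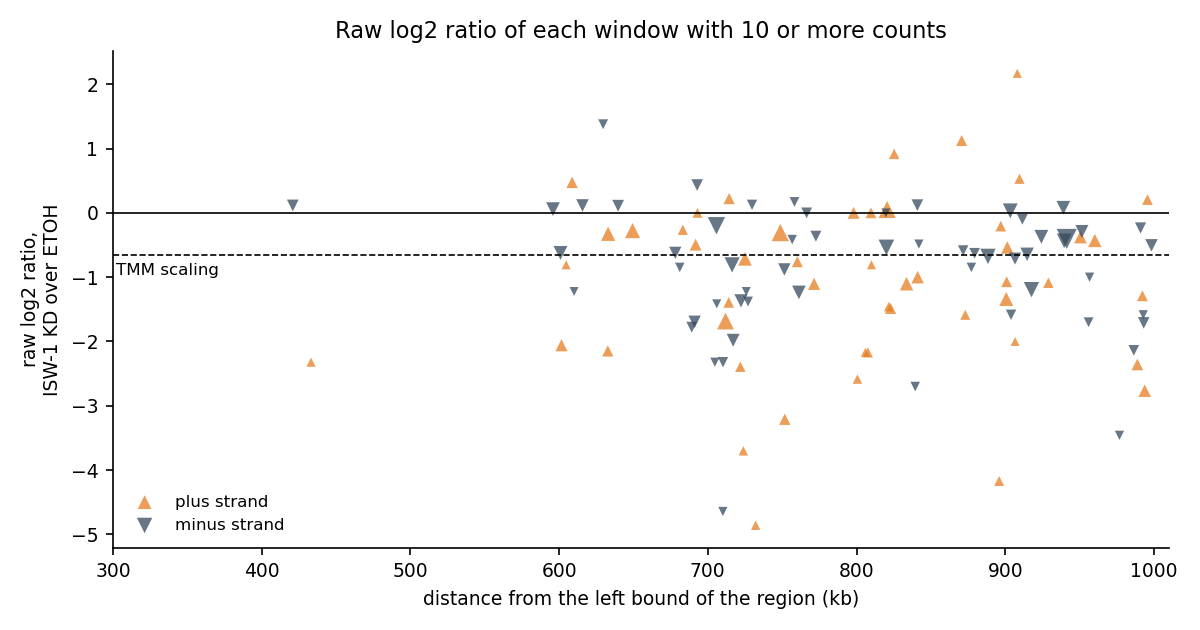
Raw log2 ratio of ISW-1 KD over ETOH for each window with at least 10 counts, against the distance in kb from 13 Mb, with larger symbols for more counts. Upward triangles are plus-strand and downward triangles minus-strand windows, and the dashed line is the TMM scaling. The 2 lowest points had 0 counts in ISW-1 KD and were drawn with 0.5 added to both columns.

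Along the region, every 100 kb step beyond 13.6 Mb held fewer counts in ISW-1 KD than in ETOH. From 13.6 to 13.7 Mb there were 626 counts in ISW-1 KD and 881 in ETOH, a ratio of 0.711 (0.640 to 0.788). From 13.7 to 13.8 Mb there were 1960 in ISW-1 KD and 3176 in ETOH, the lowest ratio of the 4 steps at 0.617 (0.583 to 0.653). From 13.8 to 13.9 Mb the counts were 1205 in ISW-1 KD and 1551 in ETOH, with a ratio of 0.777 (0.720 to 0.838), and from 13.9 to 14 Mb they were 4769 in ISW-1 KD and 6584 in ETOH, with a ratio of 0.724 (0.698 to 0.752). Without the most abundant window of each step, the 4 ratios were 0.680, 0.561, 0.626 and 0.630. After scaling, 2 of 19 windows were called lower from 13.6 to 13.7 Mb, 9 of 29 from 13.7 to 13.8 Mb, 5 of 24 from 13.8 to 13.9 Mb and 4 of 32 from 13.9 to 14 Mb, against 14.8% over the whole table. In the same order 2, 0, 2 and 1 windows were called higher, against 8.41% over the whole table.

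By position relative to genes, 52 of the 107 windows lay outside protein-coding genes and 55 inside, 34 of these in introns on the strand opposite to the gene. Windows outside genes had a median raw log2 ratio of −0.85, with 13 called lower and 1 higher after scaling, against 15.2% and 8.20% of this class over the whole table. Windows in introns on the opposite strand had a median of −0.46, with 2 called lower and 4 higher, against 14.4% and 9.57%. The 15 windows in introns on the gene's own strand had a median of −0.71, with 4 lower and 0 higher, against 15.7% and 6.49%. Over the whole table these 3 classes had medians of −0.68, −0.63 and −0.63, so they lay closer together there. Whether the classes differed was not tested.

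A set of 9 genes held at least 3 windows each with 10 or more counts, 44 windows in all. The largest of these genes by window count, Y37A1A.4 (IV:13934386-13964008), held 112 windows. Of its 8 windows with at least 10 counts, 7 had fewer in ISW-1 KD, against 78.5% over the whole table. None of the 8 was called after scaling, against 14.8% called lower and 8.41% higher over the whole table. Besides 21ur-1393, the windows of 21ur-213 and 21ur-3179 in Y37A1A.4 had 108 and 74 counts in ISW-1 KD and 146 and 70 in ETOH. Raw log2 ratios in this gene ran from −1.70 to 0.08.

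In sorb-1 (IV:13750333-13770497) the windows summed to 141 counts in ISW-1 KD and 273 in ETOH, a ratio of 0.516 (0.418 to 0.635). Its 7 windows with at least 10 counts ran from −3.21 in 21ur-1930 to 0.17 in 21ur-10511 on the raw log2 scale. In egl-23, which encodes a potassium channel and crosses the 14 Mb bound, the windows of the region summed to 100 counts in ISW-1 KD and 225 in ETOH, a ratio of 0.444 (0.348 to 0.565). There 6 of 7 windows had fewer counts in ISW-1 KD, against 78.5% over the whole table, with a median of −1.29. After scaling 1 of the 7 was called lower, against 14.8% over the whole table. The last window of the region with at least 10 counts, 21ur-5432 (IV:13998335-13998355, minus strand), lay in an egl-23 intron and had 31 counts in ISW-1 KD and 44 in ETOH.

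In 5 others of this set, the ratios lay on both sides of the region's total of 0.706. In Y37A1A.3 the windows summed to 101 in ISW-1 KD and 196 in ETOH, and in ent-4 to 29 in ISW-1 KD and 46 in ETOH. In prdh-1 there were 47 counts in ISW-1 KD and 51 in ETOH, and in Y37A1A.2 there were 72 in ISW-1 KD and 76 in ETOH. In Y45F10D.15, home of 21ur-3006 and 21ur-1770, they summed to 779 in ISW-1 KD and 843 in ETOH, a ratio of 0.924 (0.837 to 1.02).

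Close neighbours did not share their ratios closely. Among windows with at least 10 counts there were 26 neighbouring pairs within 1000 bases, 13 of them on opposite strands. Both windows had fewer counts in ISW-1 KD in 18 pairs, both had more in 0, and the pair was split in 5. Of the region's single windows with at least 10 counts, 77.6% had fewer. In the remaining 3 pairs a window had equal counts. The raw log2 ratios of a pair differed by 0.92 at the median, against 1.04 over all 106 neighbouring pairs in the region. How much of these differences was counting error was not tested. For example, 21ur-1770 and 21ur-3006, 490 bases apart on opposite strands, had 184 and 590 counts in ISW-1 KD and 267 and 569 in ETOH. The windows of 21ur-5969 and 21ur-7616, 218 bases apart on the plus strand, had 7 and 87 counts in ISW-1 KD and 31 and 109 in ETOH.

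Compared with the megabases from 14 to 17 Mb, the region differed in its total more than in its typical window. Its summed ratio of 0.706 lay below those of the megabases from 14 to 15 Mb (0.901, 0.894 to 0.908), 15 to 16 Mb (0.784, 0.774 to 0.793) and 16 to 17 Mb (0.837, 0.827 to 0.846). The median raw log2 ratio of −0.76, however, stood beside −0.74, −0.80 and −0.74 in those megabases. When windows with 1000 or more counts were left out, 4 of them in the region and 14 to 17 in each of the others, the summed ratio was 0.590 (0.565 to 0.617) in the region. It was then 0.581, 0.601 and 0.566 in the other megabases, and the interval of the region held all 3 values. Beyond 17 Mb the summed ratio was 1.05, and under 1000 counts it was 0.730 (0.685 to 0.778), above the region's interval, with a median of −0.59. In the small cluster, 4.5 to 7 Mb on the same chromosome, it was −0.25, with a ratio under 1000 counts of 0.830 (0.800 to 0.860).

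**Figure D5:**
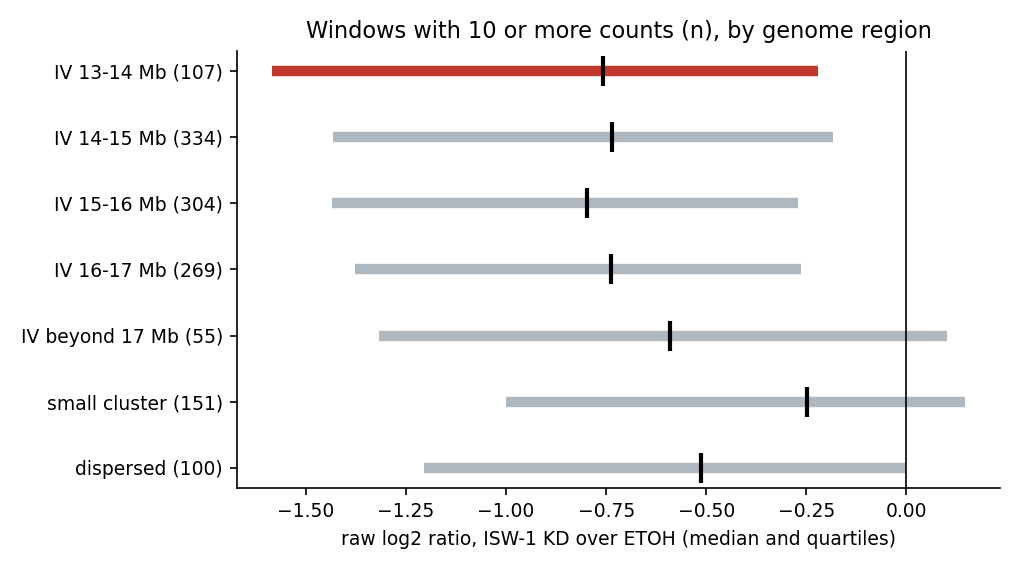
Median (black mark) and quartiles (bar) of the raw log2 ratio of ISW-1 KD over ETOH for windows with at least 10 counts, by genome region, with the number of windows in brackets and the region from 13 to 14 Mb in red. The region's median of −0.76 stands beside those of the megabases from 14 to 17 Mb, −0.74 to −0.80, and the small cluster's is −0.25.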

How the data were processed

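The deposited values were raw, unnormalized counts in windows over piRNA precursors. The authors counted with featureCounts 2.0.3, per the file headers, strand-specifically, with multi-mapping reads counted and each read reduced to its 5′ base, from 1 merged alignment file per condition. CIP and then RppH were applied to the RNA per the labels' protocols, an order that enriches capped RNA, and library kits for both miRNA (QIAseq) and mRNA (Qiagen) are named there. The aligner, length filters and any molecular identifiers are not given in the sources used here. Without identifiers, PCR reads are not independent molecules, and intervals and floors cover counting error only. Precursors of identical sequence could share reads.

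The build is ce11 per the submitters' processing notes, but same-named piRNAs of WBcel235 (Ensembl release 115) lay 25 or 26 bases to the right of the windows on both strands. Positions printed are those of the annotated piRNA of 21 bases, found for 1125 of the 1140 windows within 200 bases, unless said to be from the table. Gene context was taken from the same position and refers to protein-coding genes.

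Scaled log2 ratios came from edgeR 4.0.16 (cpm, TMM over the 1320 windows with at least 10 counts, prior count 2) in R 4.3.3, and 2-fold or more was called. For named windows, the scaled ratio is the raw one over the TMM ratio, with no prior count. A raw log2 ratio had 0.5 added to both columns where a column was 0. Intervals of ratios were exact conditional binomial and those of shares Clopper-Pearson. Detection at an equal total used the exact hypergeometric expectation. The scripts were tested on simulated data. Named windows were the 10 most abundant, the 5 lower and 5 higher whose scaled interval lay farthest from equality, the first and last with at least 10 counts, and those called with at least 50 counts. The members and lists were chosen with earlier results of these data known. Groups by upstream motif were not analysed here. The values of 1 host gene are not reported here.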

Additional observations from a re-analysis of the deposited data

How the results depend on the processing

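No paired analysis was possible because each column pools 3 libraries, and leave-one-out fits were not run for the same reason. The summed ratio of 0.706 became 0.672 without the most abundant window, 0.636 without the 10 most abundant and 0.590 with windows under 1000 counts, an alternative chosen after seeing the data. The 21 lower and 5 higher windows became 41 and 3 without scaling, 33 and 3 with column totals that leave out 21ur-2844, 5 and 0 with a minimum of 50 counts (fewer windows enter and the scaling is taken anew) and 49 and 46 with no filter (more windows of few counts enter and the scaling, taken anew, is 0.683). With a minimum of 20 counts 2 were higher. The scaled median of −0.10 became −0.65 without scaling and −0.48 with column totals that leave out 21ur-2844, which removes less of the common shift. Column totals gave 27 lower and 4 higher windows. Prior counts of 0.5 and 5, leaving out overlapping or unlocated windows, and bounds set by annotated positions moved no ratio or median beyond its 95% interval and no count of windows by over 1.5 times. The ratio of windows with a count, 0.922, was 0.837 for 3 or more counts in a column and 0.974 at an equal total. None of the 26 called windows changed sign under any scaling, filter or prior count run. Most windows had fewer than 50 counts, and a 2-fold difference there is often within counting error.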

Other observations

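The displacement between the windows and the annotated piRNAs of the same name changed in steps along chromosome IV. In the region it was 25 bases for 536 windows, which start from 13009612 to 13775198 in the table, and 26 bases for 589 windows, which start from 13796957 to 13999450. It was the same on both strands, always with the annotated piRNA to the right. Its median was 9 bases from 4 to 5 Mb, 12 from 6 to 7 Mb, 26 from 13 to 14 Mb, 33 from 15 to 16 Mb and 37 beyond 17 Mb. The share of windows with a count was 28.5% at 25 bases and 27.2% at 26 bases. Of the 15 windows that could not be located, 1 had a count, 21ur-558, with 14 counts in ISW-1 KD and 15 in ETOH.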
